A study of Mus musculus with 6 samples.

Results

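The numbered zinc finger genes of the mouse, whose symbols are Zfp followed by a number and sometimes 1 lower-case letter, were described in skin RNA from 6 libraries. The count table held 320 such symbols among 14484 genes. Zfp36 and Zfp949 were left out, which gave 318 genes, and all 318 passed the filter on low counts. The choice used the symbol and no measured value. The tested libraries were 3 of ATR mD/mD (genotype ATR fl/fl, Braf CA/+, Cre +), in which part of the kinase domain of Atr is deleted. They were set against 3 of ATR WT (genotype ATR +/+, Braf CA/+, Cre +). Both groups therefore carried the same Braf allele and Cre, on a C57BL/6-129J background. The source field of the mutant samples names nevi, benign lesions built of melanocytes. The sources used here do not give the promoter that drives Cre, nor the age or sex of the mice. The labels do not say that libraries of a group came from separate mice, so p-values measure the spread between these libraries, which may be technical.

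A C2H2 zinc finger is a short loop of protein held by a zinc ion between a pair of cysteines and a pair of histidines. Fingers arranged in tandem read DNA, and in some proteins RNA. Many mouse Zfp genes also encode a KRAB domain, which recruits the corepressor Trim28 and the histone methyltransferase Setdb1 and thereby silences transposable elements and some genes. Such genes arose by duplication and often lie side by side, so that neighbours share much of their sequence. Others on the list have older and more general roles in transcription, differentiation, or the handling of RNA and ribosomes.

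Gene counts summed to between 34723600 and 38565590 in the ATR mD/mD libraries and between 39297160 and 46847751 in the ATR WT libraries. Atr itself had 728, 874 and 865 counts in ATR mD/mD, against 640, 1065 and 1182 in ATR WT. A count over the whole gene cannot show a deletion of some exons, so this does not check the labels. Keratinocyte markers (6 of 6 measured) were high throughout, with a mean of 10.7 to 11.2 log2 CPM (counts scaled to library size) in ATR mD/mD and 10.4 to 11.2 in ATR WT. The 7 melanocyte markers averaged 3.63 to 6.28 log2 CPM in ATR mD/mD and 4.31 to 6.45 in ATR WT. The 3 T cell markers averaged 2.84 to 4.0 log2 CPM in ATR mD/mD and 3.18 to 3.95 in ATR WT, and the 3 macrophage markers 5.75 to 6.28 in ATR mD/mD and 5.60 to 6.03 in ATR WT. All markers of these lists were measured. The 22 hair follicle markers split the libraries across the genotypes. Their mean was 0.209, 2.54 and 7.58 log2 CPM in ATR mD/mD 1, 2 and 3, against 2.38, 7.33 and 7.55 in ATR WT 1, 2 and 3. Their log2 fold change was below 0 in 22 of 22 (median -0.67), and 0 passed the same test. In bulk tissue, fewer cells of a type and less RNA per cell cannot be told apart.

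The label of the gene set held in the sequences. In the longest open reading frame of the annotated transcripts, 309 of the 318 genes matched the C2H2 finger pattern at least once, and 9 did not, among them Zfp703, Zfp503 and Zfp750. The median was 10 fingers per gene, and the range ran up to 36. A KRAB pattern was found in 151 genes, with a median of 12 fingers, and not found in 167, with a median of 8. The pattern misses divergent domains, so the second group may hold KRAB genes too.

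The promoters of these genes, taken from RefSeq (GRCm38.p6, 250 bases before to 50 after the start), were often alike in 1 stretch of letters. Among all patterns of 5 letters, 2 free letters and 6 letters, on both strands, TGGGANNTGTAGT was the one held by most numbered Zfp promoters, so it was chosen from these sequences. It is part of the known binding sequence of Zfp143, also called Staf. It occurred in 50 of the 261 numbered Zfp genes with an entry (19.2%), against 458 of 27025 promoters of all genes (1.69%). Among genes with the KRAB pattern 31 of 132 held it (23.5%), and among those without 19 of 129 (14.7%). A match is a description of letters, not a site at which a protein was shown to bind. The promoters of Zfp429 (chr13:67399718-67400017, minus strand) and Zfp456 (chr13:67375714-67376013, minus strand) are printed because these neighbours shared the low libraries described further on. The stretches around the match are added for Zfp738 (chr13:67683537-67683589, minus strand), Zfp874a (chr13:67451626-67451678, minus strand) and Zfp605 (chr5:110110048-110110100, plus strand), 3 more genes the results turn on. Capitals mark the match.
Zfp429: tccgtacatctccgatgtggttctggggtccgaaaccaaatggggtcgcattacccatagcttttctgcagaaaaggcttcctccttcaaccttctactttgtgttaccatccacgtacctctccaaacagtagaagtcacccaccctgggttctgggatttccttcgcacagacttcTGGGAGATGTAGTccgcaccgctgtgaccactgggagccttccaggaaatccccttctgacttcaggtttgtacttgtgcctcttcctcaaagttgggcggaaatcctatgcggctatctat
Zfp456: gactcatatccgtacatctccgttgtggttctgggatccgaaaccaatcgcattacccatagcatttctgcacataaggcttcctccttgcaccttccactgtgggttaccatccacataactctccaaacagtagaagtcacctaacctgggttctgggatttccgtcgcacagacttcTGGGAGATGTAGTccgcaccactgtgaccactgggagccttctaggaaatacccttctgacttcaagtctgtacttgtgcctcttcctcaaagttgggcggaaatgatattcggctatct
Zfp738: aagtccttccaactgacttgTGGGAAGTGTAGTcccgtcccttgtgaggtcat
Zfp874a: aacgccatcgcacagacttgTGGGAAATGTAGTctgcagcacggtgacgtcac
Zfp605: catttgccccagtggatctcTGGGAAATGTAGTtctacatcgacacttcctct

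The promoters of Zfp429 and Zfp456 were identical at 269 of 292 aligned bases (92.1%), whereas those of the other neighbours matched Zfp429 at 60.9% to 71.4%. The match lay a median of 49 bases before the annotated start over the 50 genes, and in 41 of them within the 100 bases before it. Of the 18 genes of the chromosome 13 cluster described further on with a promoter entry, 17 held it. The other motifs searched on both strands were the ETS core CCGGAAG (58 of 261 Zfp promoters, 22.2%, against 9.93% of all promoters), the CCAAT box (50.2% against 41.1%), the TATA box TATAAA (8.05% against 15.7%) and the GC box GGGCGG (51.0% against 38.2%). At its edge, the Staf-type pattern can overlap a CCAAT box on the other strand.

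The numbered Zfp genes were of low to middle level in skin, and they kept that level in each library. Per kb of annotated exon, their median was 2.44 CPM in ATR mD/mD and 2.28 CPM in ATR WT, while the median over all genes of the table was 5.94 and 5.95 CPM. Genes with the KRAB pattern had a median of 1.72 CPM per kb in ATR mD/mD and 1.64 in ATR WT. Genes without it were at 3.48 and 3.42 CPM per kb in ATR mD/mD and ATR WT. The KRAB genes were thus at the lower levels of the family on the per-length scale. Genes with the Staf-type letters in the promoter had a median of 1.23 CPM per kb over the 6 libraries, and those with an entry but no match had 2.77. The letters were more frequent among KRAB genes, so this contrast is not separate from that of the KRAB pattern.

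Together the 318 genes took 0.610%, 0.649% and 0.602% of the counts of ATR mD/mD 1, 2 and 3, against 0.548%, 0.622% and 0.650% in ATR WT 1, 2 and 3. Their summed level was 6058, 6353 and 6144 CPM in ATR mD/mD and 5934, 6031 and 6236 CPM in ATR WT. The KRAB genes alone summed to 1542, 1629 and 1574 CPM in ATR mD/mD, against 1388, 1553 and 1647 CPM in ATR WT. The groups overlapped on each of these scales, and ATR WT 1 was the lowest library in all of them. Detection was nearly complete, with at least 10 counts for 317, 317 and 318 genes in the ATR mD/mD libraries and for 317, 318 and 318 in the ATR WT libraries.

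The highest levels per kb belonged to genes outside the KRAB group. Zfp385a, an RNA-binding protein that also acts with p53, had 40.5 ± 4.82 CPM per kb in ATR mD/mD and 42.1 ± 8.16 in ATR WT (SD, n = 3 each, as for all means given so). Zfp706, a small protein with 1 finger, had 43.2 ± 2.87 CPM per kb in ATR mD/mD and 39.2 ± 4.94 in ATR WT. Zfp750, a regulator of the terminal differentiation of epidermis, had 32.7 ± 9.02 in ATR mD/mD and 33.5 ± 6.67 in ATR WT. Zfp106, an RNA-binding protein needed for the upkeep of motor neurons and muscle in the mouse, and Zfp703, a transcriptional repressor, completed the leading 5. None of the 5 passed the test between the groups. At the other end, Zfp473 had the lowest level per kb, with 15, 22 and 100 counts in ATR mD/mD and 14, 49 and 76 in ATR WT.

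The question the design sets is whether the Atr deletion changed these genes, and no numbered Zfp gene passed the test. At an adjusted p under 0.05 (edgeR's quasi-likelihood test, Benjamini-Hochberg over 14484 genes), 0 of 318 were lower, where the share over all genes was 0.0483% (7 genes). Likewise 0 of 318 were higher, where the share over all genes was 0%. The lowest adjusted p of a Zfp gene was 0.9999 in edgeR, and DESeq2, limma-voom and edgeR's exact test also called 0. In the authors' deposited table, 0 of the 318 genes had an adjusted p under 0.05. At an unadjusted p under 0.05, edgeR counted 1 lower gene (1.09% of all genes) and 3 higher genes (0.566% of all genes), which gives 4 in all. DESeq2 and limma-voom also counted 4 and the exact test 3, while the hair list as a covariate gave 11. Leaving out 1 library gave 0 without ATR mD/mD 1, 3 without ATR mD/mD 2, 5 without ATR mD/mD 3 and 2 without any 1 of the ATR WT libraries, so this count rests on single libraries. For these alternatives the share over all genes is not given here. Their counts therefore cannot show a change particular to the Zfp genes.

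The fold changes were small in either direction. A log2 fold change below 0 was found for 137 of 318 genes (43.1%), against 48% of all genes. The median log2 fold change was 0.03 over the Zfp genes and 0.01 over all genes. It lay within 0.5 of 0 in 307 of the 318 (96.5%), and in 93.7% of all genes. The groups did not overlap with ATR mD/mD lower in 6 genes (2.58% of all genes), and with ATR mD/mD higher in 10 (2.26% of all genes). With 3 libraries against 3, an exact permutation test of 1 gene cannot give a p below 0.1.

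Most numbered Zfp genes were also steady from library to library. The step of a gene was taken as the widest gap between neighbours when its 6 log2 CPM values are sorted, whatever their genotype. The median step was 0.24 over the Zfp genes and 0.29 over all genes. The whole range from the lowest to the highest library stayed under 1 log2 unit in 284 of 318 Zfp genes (89.3%), and in 10419 of all genes (71.9%). Zfp410, a transcription factor with few targets, had the narrowest step at 0.039, with 39.5, 40.2 and 40.2 CPM in ATR mD/mD and 38.4, 41.2 and 42.0 CPM in ATR WT. These values say nothing of level, and a step is harder to see where counting error is large.

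A step of 2 or more, which is at least 4-fold between neighbouring libraries, was found in 2 of the 318 genes (0.629%), where the share over all genes was 1.75%. They were Zfp429 and Zfp369, both on chromosome 13 and both with the KRAB pattern. At a step of 1 or more Zfp605 joined them, which made 3 genes (0.943%), against 5.56% of all genes. Below these, Zfp473 had a step of 0.95 and Zfp7 one of 0.85, so only 1 gene, Zfp605, lay between 1 and 2.

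**Figure D1:**
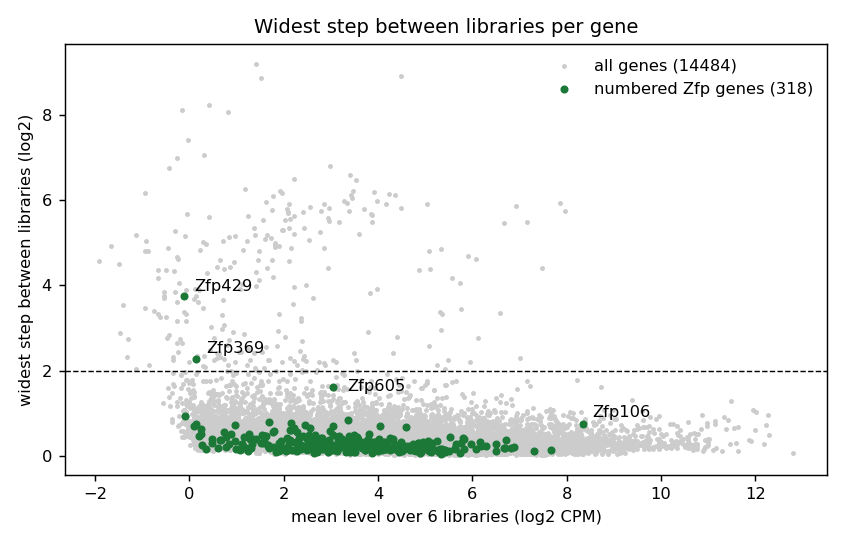
Each point is a gene, with its mean level over the 6 libraries on the x axis (log2 CPM) and its widest step between libraries on the y axis (log2). Of the 318 numbered Zfp genes (green), only Zfp429 and Zfp369 lie above the dashed line at 2, among 253 of 14484 genes (grey).

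Zfp429 had the widest step of the family. This gene of the KRAB type has 10 fingers and lies on the minus strand at chr13:67387905-67399819 (mm10). It had 3, 3 and 62 counts in ATR mD/mD 1, 2 and 3, against 132, 103 and 105 in ATR WT 1, 2 and 3. Scaled, these were 0.0858, 0.0762 and 1.77 CPM in ATR mD/mD and 3.64, 2.37 and 2.15 CPM in ATR WT. ATR mD/mD 1 and 2 were near 0, while ATR mD/mD 3 was close to ATR WT 3. The exact 95% Poisson intervals, which cover counting error only, were 1.36 to 2.28 CPM in ATR mD/mD 3 and 1.76 to 2.60 CPM in ATR WT 3, so the intervals of these libraries overlapped. The interval of ATR mD/mD 1 ended at 0.251 CPM and that of ATR mD/mD 2 at 0.223 CPM. The step of 3.74 on the log2 scale thus ran between libraries of 1 genotype.

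The groups did not overlap for Zfp429, but the test did not call it. In edgeR's quasi-likelihood test the log2 fold change was -2.08, with an SE of 1.12 and an adjusted p of 0.9999. Without ATR mD/mD 3 the log2 fold change was -5.02 with an adjusted p of 0.121 in the same test, and without ATR mD/mD 1 or ATR mD/mD 2 it was -1.57 or -1.54. The authors' deposited table gives Zfp429 a log2 fold change of -2.07 with an adjusted p of 1. The hair list was at 0.209 and 2.54 log2 CPM in ATR mD/mD 1 and 2 and at 7.58 in ATR mD/mD 3. With that list as a covariate the log2 fold change of Zfp429 was -2.30. Over all alternatives its adjusted p ran from 0.121 to 1. The unadjusted p of Zfp429 was 0.108 in the fit without covariate (edgeR's quasi-likelihood test). In the same test it was 0.0334 with the replicate number as a block, 0.0426 with the hair list and 7.5e-05 without ATR mD/mD 3. Leaving out any 1 other library gave 0.145 to 0.204 (same test), so the smallest value rests on leaving out ATR mD/mD 3.

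Sequence shared with relatives limits what the counts of Zfp429 can tell. Of its 50-base windows of exon sequence, 25% also occur in transcripts of other genes, and its closest partner was Rsl1, a KRAB zinc finger gene that regulates sex-limited liver genes in the mouse. Rsl1 had 64, 71 and 79 counts in ATR mD/mD and 92, 89 and 119 in ATR WT. Its step was 0.16, with the same 4 libraries above it as in Zfp429. How the authors handled reads that align to more than 1 gene is not stated in these sources, and the part of such reads in the step was not tested.

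Zfp429 lies in the largest cluster of numbered Zfp genes in the table, 21 genes from Zfp712 to Zfp273 at chr13:67038596-67827002. Its neighbours did not share its step, but in a few the widest step divided the libraries in the same way. In 6 of all 318 genes (1.89%) the widest step had ATR mD/mD 3 and the 3 ATR WT libraries above and ATR mD/mD 1 and 2 below, where the share over all genes was 0.925%. Of these 6, 4 lie in the cluster, namely Zfp429 itself, from which this split was taken, and Zfp456, Zfp738 and Zfp273.

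Zfp456, whose promoter is printed beside that of Zfp429, had 1.26, 1.12 and 2.32 CPM in ATR mD/mD 1, 2 and 3, against 2.84, 2.30 and 2.13 CPM in ATR WT 1, 2 and 3. Zfp738 had 2.89, 3.48 and 5.75 CPM in ATR mD/mD, against 6.23, 5.15 and 6.71 CPM in ATR WT. In both genes ATR mD/mD 1 and 2 were the lowest libraries, and ATR mD/mD 3 lay among the ATR WT libraries, so the groups overlapped. The log2 fold change of Zfp456 was -0.63 (SE 0.357), and that of Zfp738 was -0.58 (SE 0.313). Zfp273 also had ATR mD/mD 1 and 2 lowest, at smaller distances, with 2.03, 2.03 and 2.60 CPM in ATR mD/mD and 3.06, 2.69 and 2.31 CPM in ATR WT. Its step was 0.18, below the family median of 0.24. The exact Poisson intervals overlapped across this step, with 1.61 to 2.53 CPM in ATR mD/mD 2 and 1.91 to 2.78 CPM in ATR WT 3.

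Zfp874a, a gene of the same cluster, was lower in each ATR mD/mD library. It had 4.58, 5.15 and 6.30 CPM in ATR mD/mD, against 11.8, 7.75 and 8.82 CPM in ATR WT. The groups did not overlap, and ATR WT 1 was the highest. Its log2 fold change of -0.82 (SE 0.243) had the smallest p of all lower Zfp genes, 0.0130 unadjusted and 0.9999 adjusted (edgeR's quasi-likelihood test).

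As a description over 6 libraries, Pearson's r with Zfp429 on the log2 CPM scale was 0.984 for Zfp456, 0.944 for Zfp738, 0.893 for Zfp273 and 0.880 for Zfp874a. Within the cluster it went down to -0.763 for Zfp493, so the neighbours were not alike as a group. Over the cluster 12 genes had a log2 fold change below 0 and 9 above, with a median of -0.016, and the median step was 0.24. Its genes also share sequence, since a median of 7.30% of their windows occurs in other genes. Zfp456, Zfp738 and Zfp273 each shared over 10% of their windows, and Zfp874a lay just above that median. The closest partner of Zfp456 was Rsl1, as for Zfp429, so the profiles of these genes may not be separate measurements. The part of shared reads in these values of r was not tested. In the whole table, the 5 genes with the highest r to Zfp429 were Hyal2 (0.997), Zfp456, Cstf1 (0.983), Ahi1 (0.981) and Ube2n (0.981). Apart from Zfp456 their own steps were 0.25 or less, so a high r here goes with much smaller differences between libraries than those of Zfp429.

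**Figure D2:**
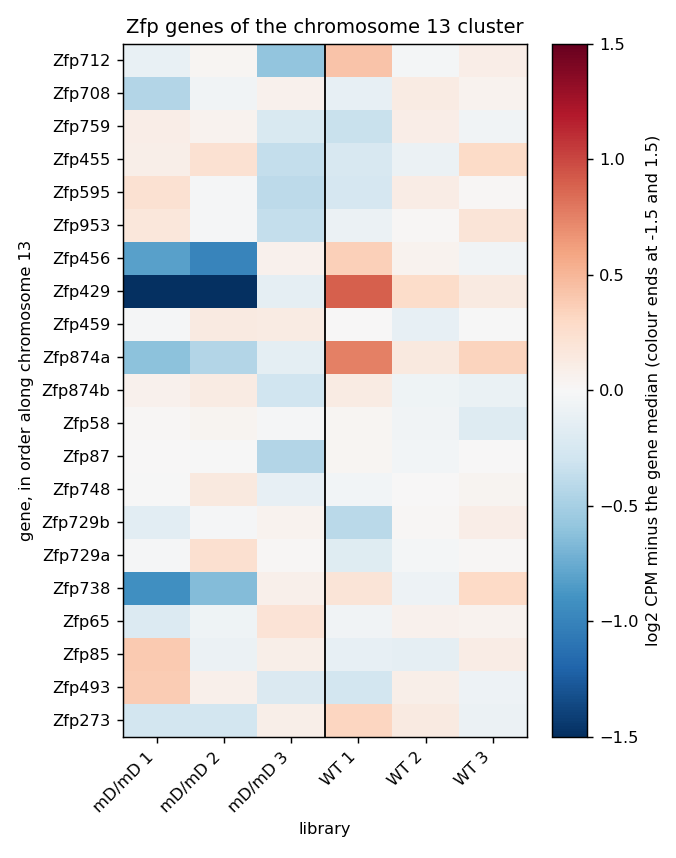
Level of the 21 numbered Zfp genes of the chromosome 13 cluster, in order along the chromosome (y axis), in each of the 6 libraries (x axis, ATR mD/mD left of the line and ATR WT right). Colour is log2 CPM minus the median of the gene, with colours ending at -1.5 and 1.5. Zfp429, Zfp456 and Zfp738 are lowest in ATR mD/mD 1 and 2, while most other rows stay pale.

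The other large clusters held no comparable step. The 15 genes from Zfp677 to Zfp946 on chromosome 17, all with the KRAB pattern, had no step above 0.42 (Zfp53). The 14 genes from Zfp84 to Zfp146 on chromosome 7 reached 0.71 in Zfp568, which silences a placental transcript of Igf2 in the mouse embryo. The 13 genes from Zfp871 to Zfp414 on chromosome 17 reached 0.76 in Zfp811. In all, 134 of the 318 genes (42.1%) lay in 16 clusters of at least 4 genes with gaps of at most 250 kb, and chromosome 7 alone carried 76 of the 318. On chromosome 9, which carries Atr, the nearest of the 17 numbered Zfp genes kept here lay 23.5 Mb from it. That distance does not cover Zfp36 and Zfp949, which were left out at the start.

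Zfp369, also known as Nrif2, is a relative of the neurotrophin receptor-interacting factor Zfp110 and lies at chr13:65278814-65304221, outside the cluster of Zfp429. It had 64, 60 and 35 counts in ATR mD/mD 1, 2 and 3, against 6, 49 and 107 in ATR WT 1, 2 and 3. Scaled, these were 1.83, 1.52 and 1.00 CPM in ATR mD/mD and 0.165, 1.13 and 2.19 CPM in ATR WT. The step of 2.29 set ATR WT 1 apart below the other 5 libraries, with an exact Poisson interval of 0.0607 to 0.360 CPM. Its log2 fold change was 0.31 (SE 0.777), and without ATR WT 1 it turned to -0.18. Zfp110 was flat, with 34.3, 35.2 and 35.4 CPM in ATR mD/mD and 30.2, 36.5 and 37.1 CPM in ATR WT, and shares 0.712% of the windows of Zfp369.

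Zfp605, a KRAB gene with 12 fingers at chr5:110110092-110129794, also had its lowest level in ATR WT 1. It had 7.18, 11.4 and 18.3 CPM in ATR mD/mD, against 2.32, 9.52 and 8.88 CPM in ATR WT. ATR WT 1 was the lowest and ATR mD/mD 3 the highest, and ATR mD/mD 1 lay below 2 of the ATR WT libraries. The log2 fold change was 0.83 (SE 0.579). It was 0.43 without ATR WT 1 and also without ATR mD/mD 3, 0.97 with the replicate number as a block, and 1.53 with the hair list as a covariate. The unadjusted p was 0.198 in the fit without covariate, 0.0246 with the block and 0.00230 with the hair list (edgeR's quasi-likelihood test), and the adjusted p stayed at 0.702 or above under each alternative.

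**Figure D3:**
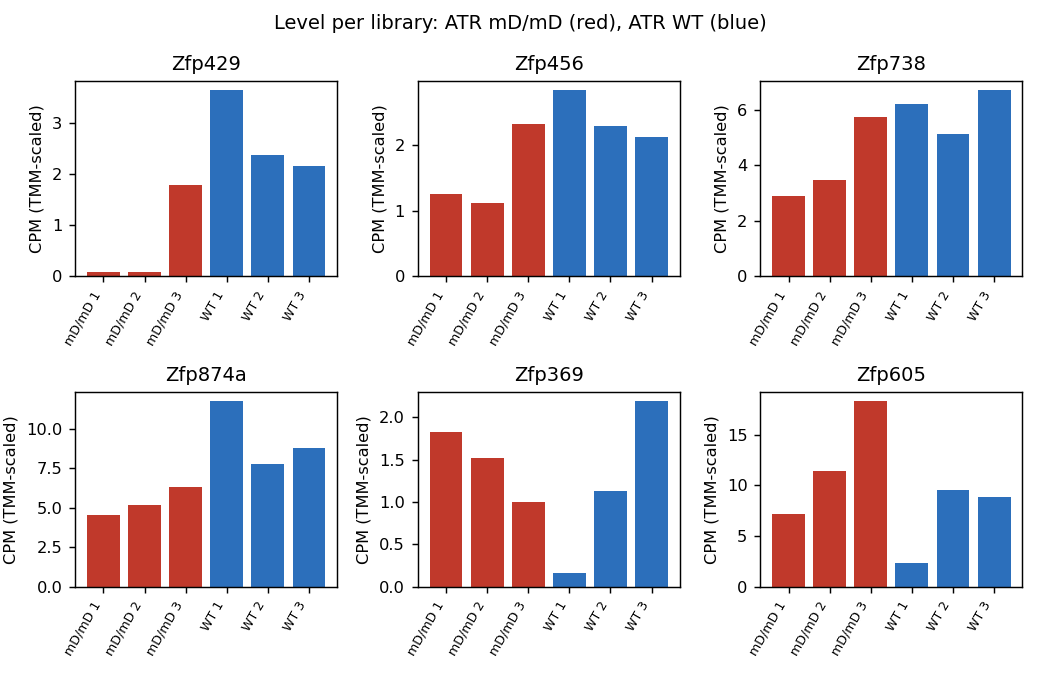
TMM-scaled level (CPM, y axes starting at 0) of 6 numbered Zfp genes in each library, with 1 bar per library, ATR mD/mD in red and ATR WT in blue. Zfp429 is near 0 in ATR mD/mD 1 and 2, Zfp874a is lower in the 3 ATR mD/mD libraries, and Zfp369 and Zfp605 are lowest in ATR WT 1.

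A low value in ATR WT 1 was common in the family, mostly at small size. For 56 of the 318 genes (17.6%) the widest step set ATR WT 1 alone below the rest, where the share over all genes was 6.88%. Of these, 35 had the KRAB pattern and 21 did not. ATR WT 1 was the lowest of the 6 libraries in 116 Zfp genes (36.5%) and in 22.4% of all genes. With another scaling of the libraries (RLE) the count was 51 of 318, against 882 of all genes. ATR WT 1 also had the lowest TMM factor, 0.923, against 0.980 to 1.02 in ATR mD/mD and 1.03 and 1.04 in the other ATR WT libraries, and its hair list was 2.38 log2 CPM. The part of either in this pattern was not tested.

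The split of the libraries by hair genes was less often the widest step in the Zfp genes than over all genes. A step of 1 or more with ATR mD/mD 3, ATR WT 2 and ATR WT 3 above was found in 0 of 318 genes, against 2.35% of all genes. With only 3 Zfp genes at a step of 1 or more in any split, that 0 says little. At any size, 10 of 318 (3.14%) had this split, against 6.95% of all genes. The widest of these were Zfp473 and Zfp7. Zfp7 had 7.58, 7.41 and 16.0 CPM in ATR mD/mD 1, 2 and 3, against 6.23, 13.7 and 15.1 CPM in ATR WT 1, 2 and 3, so that ATR mD/mD 3 sided with ATR WT 2 and 3. Zfp106 showed the opposite split, with 428, 443 and 213 CPM in ATR mD/mD, against 451, 254 and 256 CPM in ATR WT. Its 3 high libraries were those in which the hair list was low.

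The rule for named genes took the 4 smallest p among the genes higher in ATR mD/mD. None of these genes passed the adjusted threshold. Zfp69, a gene linked to lipid storage and diabetes in mice, had 2.20, 2.06 and 3.03 CPM in ATR mD/mD, against 1.21, 1.75 and 1.11 CPM in ATR WT. Zfp791 had 2.95, 3.89 and 2.92 CPM in ATR mD/mD, against 1.93, 2.35 and 2.15 CPM in ATR WT. In both genes each ATR mD/mD library lay above each ATR WT library. The log2 fold change was 0.84 (SE 0.310, unadjusted p = 0.0320, edgeR's quasi-likelihood test) for Zfp69 and 0.60 (SE 0.246, unadjusted p = 0.0469, same test) for Zfp791.

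Zfp868 had 25.5, 13.4 and 27.5 CPM in ATR mD/mD, against 10.6, 12.5 and 15.7 CPM in ATR WT. ATR mD/mD 2 lay within the ATR WT range, so the groups overlapped despite an unadjusted p of 0.0414 (edgeR's quasi-likelihood test) and a log2 fold change of 0.77 (SE 0.305). Zfp810 had 6.29, 6.75 and 9.56 CPM in ATR mD/mD, against 4.47, 5.80 and 5.94 CPM in ATR WT, without overlap. Its log2 fold change was 0.48 (SE 0.249, unadjusted p = 0.0978, same test).

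Numbered Zfp genes known to silence transposable elements or to guard imprints did not pass the test. Of 6 measured, 2 had a log2 fold change below 0 and 4 above, with a median of 0.10, against 0.01 over all genes. Zfp932, which represses a class of endogenous retroviruses, had 36.1, 35.3 and 42.6 CPM in ATR mD/mD, against 31.9, 33.5 and 31.3 CPM in ATR WT, and the groups did not overlap. Its log2 fold change was 0.24 (SE 0.128). Of the 50-base exon windows of Zfp932, 37.0% also occur in transcripts of other genes. The part of shared reads in its values was not tested. Zfp57, which holds DNA methylation at imprinted loci, had 7.12 ± 1.47 CPM in ATR mD/mD and 5.56 ± 1.49 CPM in ATR WT. Zfp809, which silences murine leukaemia virus sequences, had a log2 fold change of 0.11 (SE 0.182).

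The partners of KRAB proteins did not pass the test either. Of 19 corepressor genes 18 were measured, with 10 below 0 and 8 above, a median log2 fold change of -0.01 and 0 called. Their widest step was 0.61, in Uhrf1, with 30.0, 36.9 and 75.3 CPM in ATR mD/mD and 36.1, 49.2 and 40.9 CPM in ATR WT. Trim28, the scaffold that binds KRAB, had 174, 170.4 and 255 CPM in ATR mD/mD, against 175, 207 and 175 CPM in ATR WT. Hdac1, a histone deacetylase of the complex, had 85.9 ± 7.34 CPM in ATR mD/mD and 101 ± 6.79 CPM in ATR WT, a log2 fold change of -0.23 (SE 0.126) with overlapping groups. Hdac2, a second deacetylase, differed by -0.08 (SE 0.127) on the log2 scale.

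Among genes of lineage and differentiation, 10 were measured, 7 below 0 and 3 above, with a median log2 fold change of -0.05. Zfp703 had 93.0, 96.2 and 96.6 CPM in ATR mD/mD, against 120.0, 101 and 106 CPM in ATR WT. The groups did not overlap, and the log2 fold change was -0.20 (SE 0.121). Zfp503, its close relative, was at -0.11 (SE 0.142), and Zfp423, which commits cells to the fat lineage, at -0.15 (SE 0.211). Zfp750 was highest in the libraries of high hair content within its group, with 89.8, 87.9 and 139 CPM in ATR mD/mD, against 90.3, 103 and 132 CPM in ATR WT.

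Of 12 genes with general roles in transcription and chromatin, 8 were below 0 and 4 above, with a median of -0.01. Zfp143, the factor whose letters recur in the promoters, had 18.0 ± 2.19 CPM in ATR mD/mD and 15.8 ± 1.15 CPM in ATR WT, a log2 fold change of 0.19 (SE 0.154). Zfp281 and Zfp148, which bind GC-rich promoters, were at -0.14 (SE 0.165) and -0.04 (SE 0.161). Of 9 genes with roles in RNA and ribosomes, 2 were below 0 and 7 above, with a median of 0.07. Zfp622, whose yeast relative matures the large ribosomal subunit, was at 0.13 (SE 0.139), and Zfp830 at -0.11 (SE 0.140). Zfp598, a ubiquitin ligase that senses collided ribosomes, was at 0.12 (SE 0.178). None of the genes on either list passed the adjusted threshold.

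**Figure D4:**
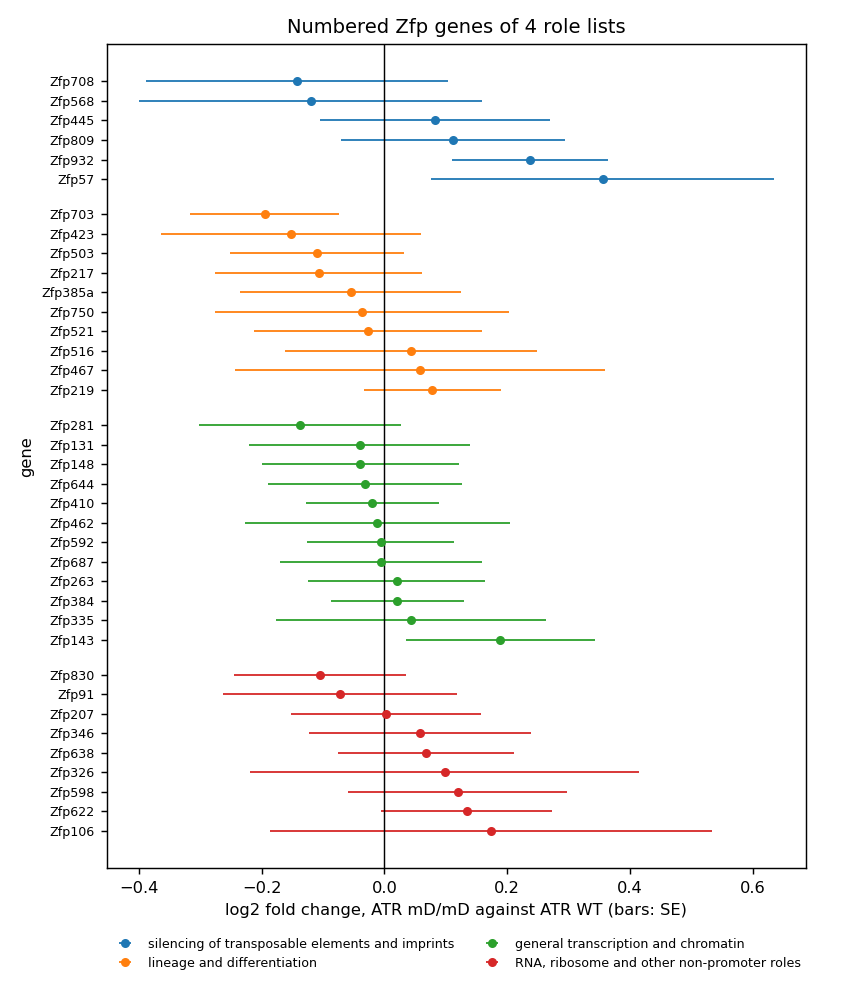
Log2 fold change of ATR mD/mD against ATR WT (x axis) for the measured numbered Zfp genes of 4 role lists (y axis, grouped by colour), with bars of 1 SE. The values of the 6, 10, 12 and 9 genes lie between -0.20 and 0.36, and no gene passed an adjusted p of 0.05.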

How the data were processed

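Skin messenger RNA was sequenced after preparation by the TruSeq RNA v2 protocol, which does not mark the strand, per the labels' protocols. FastQC, TopHat2 2.0.12, edgeR and the build mm10 are named per the submitters' processing notes, while these sources name no read counter and no annotation. The authors deposited raw read counts per gene and library, per the file headers. It also holds the authors' deposited log2 fold change and p-value for each gene. Of its 14486 rows, 2 name no gene (4.93% to 5.72% of counts) and were left out.

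Counts were scaled with TMM and tested with edgeR 4.0.16 (R 4.3.3, quasi-likelihood test, no covariate), with filterByExpr and Benjamini-Hochberg adjustment over 14484 genes. The SE was obtained from the test as the size of the log2 fold change over the root of its F value. Levels are TMM-scaled CPM, and log2 CPM uses a prior count of 2. The fit was tested on simulated data. The precision follows the depth of 34723600 to 46847751 gene counts per library, and Poisson intervals leave out the spread between libraries. No pair of libraries of a group agreed within sampling noise.

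Exon lengths, positions and transcripts come from GENCODE M21. Of the symbols, 14386 had a position, 422 of them through an older symbol. Fingers and the KRAB pattern were searched in the longest reading frame from ATG to stop. Promoters come from RefSeq (GRCm38.p6), with 261 of 318 genes matched by symbol, and all 5 motifs were picked with the promoters in view. Reads of overlapping or near-identical genes cannot be told apart in these counts.

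The genes, lists and tests were chosen with earlier results of these data known. The rule for named genes took Zfp429, called genes, steps of 2 or more, the 4 smallest p in each direction, the 5 highest levels per kb, the 3 smallest p of each role list and of the KRAB corepressor list, and the 5 genes most like Zfp429. Zfp605, Zfp473, Zfp7, Zfp110, Zfp273, Zfp410, Zfp493, Zfp53, Zfp568, Zfp811, Uhrf1 and Rsl1 were not taken by this rule and were picked with their values known. The alternatives were RLE scaling, other filters, DESeq2 1.42.0, limma-voom (limma 3.58.1), edgeR's exact test, the replicate number as a block, the hair list as a covariate, other step sizes and prior counts, and leaving out each library in turn.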

Additional observations from a re-analysis of the deposited data

How the results depend on the processing

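No numbered Zfp gene was called under any alternative: RLE scaling, either filter, DESeq2, limma-voom, edgeR's exact test, the hair list covariate, or leaving out each library in turn (0 to 0 genes). With an unadjusted p under 0.05 as the rule, the count was 4, but it was 11 with the hair list covariate and ran from 0 (without ATR mD/mD 1) to 5 (without ATR mD/mD 3) when 1 library was left out. The share over all genes in these alternatives is not given here, so the counts are not particular to the Zfp genes. The lowest adjusted p of a Zfp gene over these settings was 0.121, without ATR mD/mD 3. The fit with the replicate number as a block called 0 genes. Same-numbered libraries had correlated deviations of 0.633, -0.509 and 0.573 for numbers 1, 2 and 3, and not every library correlated best with its own number, so the numbers were not taken to pair the samples.

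The count of genes with a step of 2 or more was 2 under RLE scaling and a prior count of 0.5. It was 1 at a step of 3, and 0 when genes needed a mean of at least 1 log2 CPM, which left 295 of the 318. Leaving out 1 library at a time gave 1 to 2, the 1 being without ATR WT 1, where Zfp369 lost its step. Of 260 log2 fold changes of 26 genes, 13 changed sign, in 8 genes. With the hair list covariate Zfp750 was 0.15, Zfp106 -0.19 and Zfp148 0.077, and Zfp605 kept its sign at 1.53. Leaving out 1 library at a time, the log2 fold change ran from -0.18 to 1.15 for Zfp369, -0.18 to 0.12 for Zfp385a, -0.29 to 0.12 for Zfp750, -0.27 to 0.017 for Zfp423, -0.15 to 0.094 for Zfp148, -0.17 to 0.0049 for Zfp830 and -0.036 to 0.22 for Zfp598. The cause was not tested. In libraries with a few counts, as the low ones of Zfp429 and Zfp369, counting error and the prior count bear on the size of a step.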

Other observations

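Some numbered Zfp genes cannot be counted apart from relatives. Of the 318 genes, 41 shared over 10% of their 50-base exon windows with other genes, and 125 shared none. The shares were highest in Zfp781 (96.3%), Zfp960 (82.7%) and Zfp97 (81.3%), whose closest partners were Gm3055 for Zfp781 and each other for Zfp960 and Zfp97. The median over the 318 was 0.276%, with 0.873% in genes holding the KRAB pattern and 0 in those without it.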
